A study of Mus musculus with 5 samples.

Results

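The 8 genes described here make, break down and sense the endocannabinoids: Napepld, Faah, Dagla, Daglb, Mgll, Abhd6, Cnr1 and Cnr2. They were chosen by their symbols in the deposited table of counts, and all 8 were among its 23420 genes. With a filter at a mean of 1 CPM (counts divided by the total of the library, times 1000000) over the libraries, 5 of the 8 stayed among the 12918 genes compared, and Dagla, Cnr1 and Cnr2 lay below it. The samples were luminal layers of the uterus, cut out by laser microdissection from wildtype C57BL/6N females, with the day of the plug counted as day 1 of pregnancy. RNA was amplified with a SMART-seq v.4 kit and sequenced as 5 libraries, 1 per condition. They were taken on day 3 in the morning, on day 4 in the morning and in the evening, and on day 5 in the morning at 2 places, one surrounding the attached embryo and one away from that embryo. The deposited count columns of these 2 day 5 libraries are headed Ampole (around) and Mpole (away). Read as the anti-mesometrial and mesometrial poles, these names mean that nearness to the embryo and pole of the uterus cannot be told apart. The presence of embryos was checked by flushing the oviducts on day 3 and 1 uterine horn on day 4, and day 5 females received Chicago blue in saline to show the implantation sites. How many mice or sections made up each library was not given in the sources used here. CPM values given below use library sizes scaled by TMM. With 1 library per condition there was no replicate check, and no test could estimate the spread within a condition. All intervals given are 95% intervals of counting error only, and they do not cover the spread between mice.

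Endocannabinoids are lipid messengers cut from membrane lipids on demand and removed by hydrolysis inside cells. Anandamide, an N-acylethanolamine, is released by Napepld, the N-acyl phosphatidylethanolamine phospholipase D, and hydrolysed by Faah, the fatty acid amide hydrolase. The other main messenger, 2-arachidonoylglycerol, is made by the diacylglycerol lipases Dagla and Daglb and hydrolysed by the monoacylglycerol lipase Mgll and by Abhd6. Both messengers act on the G protein-coupled receptors Cnr1 and Cnr2. In the mouse uterus, anandamide is known for its effect on the timing of implantation, and the blastocyst carries Cnr1.

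The total counts ranged from 15334674 to 19529491 per library, and between 15274 and 15888 genes had at least 1 count. A floor of 3 counts equalled 0.161 to 0.190 CPM. The ribosomal transcript Rn45s and the mitochondrial leucyl-tRNA synthetase gene Lars2 together took from 15.0% to 23.2% of a library. The luminal epithelium markers (Krt8, Krt18, Krt19, Epcam, Cdh1, Cldn7 and Wnt7a) summed to between 3498 and 4592 CPM in the libraries other than the day 5 one around the embryo, where they reached 6898 CPM. That library stood apart from the other 4 also in markers of other cells. Its smooth muscle markers summed to 384 CPM, against 7.95 to 27.6 CPM elsewhere, and its leukocyte markers to 14.7 CPM, against 47.2 to 69.9 CPM elsewhere. Of 9 listed markers of the blastocyst and trophoblast, 4 (Cdx2, Pou5f1, Nanog and Gata4) had 0 counts in the other 4 libraries. They had 22, 68, 10 and 54 counts around the embryo. The rest of that list (Sox17, Eomes, Elf5, Tead4 and Sox2) also had counts elsewhere. Sox17 was at 762 to 2129 CPM elsewhere and 2277 CPM around the embryo. With it, the list summed to 773 to 2141 CPM elsewhere and 2369 CPM around. Every result below that sets this library against another rests on it alone.

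The upstream sequences of 3 members are shown first, because Napepld and Mgll were both low around the embryo while Faah was close to its day 4 evening level there. RefSeq gave promoters for 7 of the 8 members, on GRCm38.p6. The 250 bases before the start read 5′ to 3′ on the strand of the gene, and capitals mark matches on either strand to TTCNNNGAA, TGTTCT or GGTCA, the core letters of sites for Stat factors, steroid receptors of the progesterone receptor type, and other nuclear receptors.
Napepld, minus strand, chr5:21701623-21701872: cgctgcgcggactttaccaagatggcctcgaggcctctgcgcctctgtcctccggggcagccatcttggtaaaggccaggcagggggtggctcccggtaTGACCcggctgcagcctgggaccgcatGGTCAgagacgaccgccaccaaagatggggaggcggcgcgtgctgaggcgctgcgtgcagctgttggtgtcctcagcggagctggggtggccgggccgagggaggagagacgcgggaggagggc
Mgll, first start, plus strand, chr6:88724162-88724411: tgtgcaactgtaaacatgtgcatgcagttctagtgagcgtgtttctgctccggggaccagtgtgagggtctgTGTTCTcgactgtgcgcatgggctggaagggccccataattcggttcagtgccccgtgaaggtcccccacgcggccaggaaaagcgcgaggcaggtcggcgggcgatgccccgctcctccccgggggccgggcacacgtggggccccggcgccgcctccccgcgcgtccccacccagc
Faah, minus strand, chr4:116017925-116018174: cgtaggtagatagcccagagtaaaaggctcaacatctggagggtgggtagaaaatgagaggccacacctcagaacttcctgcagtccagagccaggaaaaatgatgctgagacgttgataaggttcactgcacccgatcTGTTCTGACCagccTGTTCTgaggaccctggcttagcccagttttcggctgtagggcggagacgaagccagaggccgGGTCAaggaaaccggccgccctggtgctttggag
The Napepld window held GGTCA at 2 places, with 69.6% G and C and 21 CpG pairs. Its start lay 277 bases upstream of the 5′ end of the gene in the deposited table. No GENCODE transcript was found to begin there, unlike for the Mgll and Faah windows shown. The Mgll window held TGTTCT once, with 68.0% G and C and 23 CpG pairs, and the Faah window held 2 matches each to TGTTCT and GGTCA (one of each sharing 1 base), with 55.6% G and C and 9 CpG pairs. A second Mgll start, not shown, had no match to these letters, with 74.8% G and C and 40 CpG pairs. TTCNNNGAA was in none of the promoter windows read for the members. Over all 32851 RefSeq promoter windows of this length, 7.02% held TTCNNNGAA, 16.1% held TGTTCT and 35.2% held GGTCA, and the median GC content was 52.4%. A match of these letters is a description of the sequence and does not show a site in use.

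Per length of transcript, the gene for anandamide release was the most abundant of the 8. The mean over the 5 libraries in RPKM, which divides CPM by the length of the transcript in kilobases, was 13.1 for Napepld, 9.67 for Abhd6, 6.48 for Mgll, 5.40 for Faah and 2.31 for Daglb. Dagla followed with a mean RPKM of 0.173, and the receptors Cnr2 and Cnr1 had a mean RPKM of 0.0403 and 0.0279. The order changed around the embryo, where Abhd6 led with an RPKM of 9.15, Napepld and Faah stood close to each other at 4.41 and 4.15, and Mgll was at an RPKM of 1.04, below Daglb at 1.38.

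Napepld, on the minus strand of chromosome 5 (mm10, chr5:21662903-21701345), is the gene of the phospholipase D that releases anandamide and other N-acylethanolamines. Its day 3 library held 1067 counts, the day 4 libraries 922 (morning) and 675 (evening), and the day 5 libraries 279 (around the embryo) and 1291 (away from it). In the order day 3, day 4 morning, day 4 evening, day 5 away and day 5 around, the CPM values were 61.4, 51.3, 42.7, 69.2 and 16.2. The level went down in small steps from day 3 to day 4 evening, was highest on day 5 away from the embryo and was lowest around it, and no counting interval of any library overlapped that of the day 5 library around the embryo. The log2 difference was -0.26 (interval -0.39 to -0.13) between day 4 morning and day 3 and -0.27 (interval -0.41 to -0.12) between day 4 evening and day 4 morning. From day 4 evening it was 0.70 higher (interval 0.56 to 0.83) in the library away from the embryo and differed by -1.39 (interval -1.60 to -1.19), 2.63-fold lower, in the library around it. Between the day 5 libraries Napepld was 4.27-fold lower around the embryo (log2 difference -2.09, interval -2.29 to -1.91), and 582 of the 12918 genes were lower still on that scale.

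Faah, on the minus strand of chromosome 4 (chr4:115996656-116017902), encodes the hydrolase that ends the action of anandamide. Its counts were 475 on day 3, 314 and 228 in the morning and evening of day 4, and 521 away from and 273 around the embryo on day 5, which gave 27.4, 17.5, 14.4, 27.9 and 15.9 CPM. Day 3 and the day 5 library away from the embryo formed the high end with overlapping intervals (24.9 to 29.9 and 25.6 to 30.4 CPM), and the other 3 libraries formed the low end, with overlap between neighbours. Faah was lower by 0.64 on the log2 scale on day 4 morning than on day 3 (log2 difference -0.64, interval -0.86 to -0.44). It was then 0.95 higher (interval 0.73 to 1.19) away from the embryo than on day 4 evening. Around the embryo it differed from day 4 evening by only 0.14 (interval -0.12 to 0.40, which holds 0), and from the library away from the embryo by -0.81 (interval -1.03 to -0.60).

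Napepld was thus lower around the embryo by more than Faah. The ratio of both within a library, which no scaling between libraries can move, carried the difference. The RPKM of Napepld was 2.33 times that of Faah on day 3, 3.05 times on day 4 morning, 3.08 times on day 4 evening and 2.57 times on day 5 away from the embryo (interval 2.32 to 2.86). Around the embryo the ratio was 1.06 (interval 0.895 to 1.26), below that of each other library without overlap. Naaa, the acid amidase of lysosomes that also hydrolyses N-acylethanolamines, had 1290, 1763, 3032, 6072 and 3014 counts in the same order of libraries. It was higher at each step from day 3 to day 4 evening, where Faah was lower at each. Around against away from the embryo Naaa was lower, as Faah was, with a log2 difference of -0.89 (interval -0.96 to -0.83). The ratio of the Naaa to the Faah RPKM was 4.28 on day 3, 8.84 on day 4 morning and between 17.4 and 20.9 in the 3 later libraries. That ratio was computed after the levels had been seen.

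**Figure D1:**
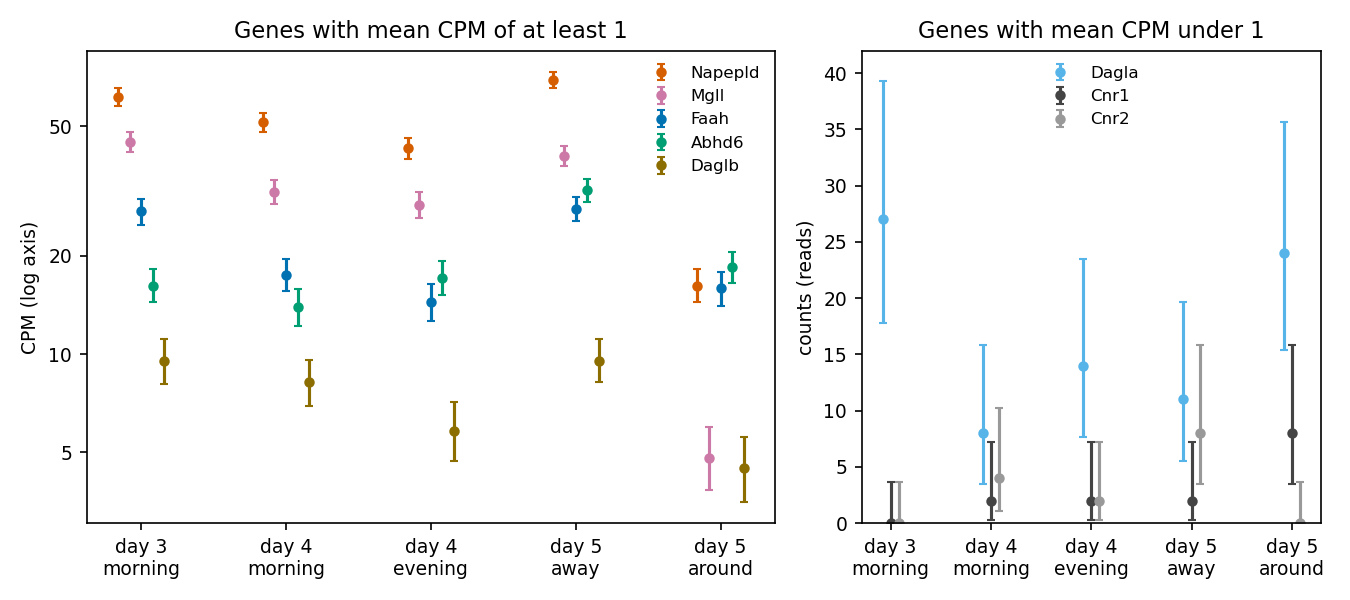
Left, CPM on a log axis for the 5 genes past the filter in each of the 5 libraries, with the 95% counting interval of each point. Right, raw counts of the 3 genes under a mean of 1 CPM. Napepld and Mgll sit well below their other values in the day 5 library around the embryo, at 16.2 and 4.82 CPM, while Cnr1 and Cnr2 never exceed 8 counts.

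On the side of 2-arachidonoylglycerol, Daglb was the diacylglycerol lipase measured with useful depth. Daglb (plus strand, chr5:143464493-143504442) had 165, 147, 92, 178 and 77 counts from day 3 to day 5 around the embryo, or 9.50, 8.19, 5.82, 9.54 and 4.47 CPM. The GENCODE annotation places the gene Rac1 over its exons, while no exon of another gene in the deposited table overlaps them. Day 3 and day 5 away from the embryo were high and nearly equal, and day 4 evening and day 5 around the embryo were low with overlapping intervals (4.69 to 7.13 and 3.53 to 5.59 CPM). The log2 difference was 0.70 (interval 0.34 to 1.09) from day 4 evening to day 5 away and -0.37 (interval -0.84 to 0.07) from day 4 evening to day 5 around. Around against away it was -1.07 (interval -1.50 to -0.70), or 2.13-fold lower, so that the interval reached to both sides of a log2 difference of -1.

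Dagla (minus strand, chr19:10245265-10304877), the diacylglycerol lipase known best from the brain, was read 27 times on day 3, 8 and 14 times in the morning and evening of day 4, and 11 times away from and 24 times around the embryo. Its mean of 0.986 CPM was just short of the filter. The counts were highest on day 3 and around the embryo, and the day 4 morning count differed from that of day 3 by -1.58 on the log2 scale (interval -3.15 to -0.63). Around against away from the embryo the log2 difference was 1.10 with a wide interval, 0.16 to 2.42. The RPKM of Daglb was 10.6, 31.9, 11.4, 28.1 and 5.58 times that of Dagla in the 5 libraries, so Daglb was the more abundant of the pair throughout.

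Mgll, the monoacylglycerol lipase that removes most 2-arachidonoylglycerol in many tissues, had the widest range of the 5 genes past the filter. The gene lies on the plus strand of chromosome 6 (chr6:88724412-88828360), and the GENCODE annotation places the gene Gm26588 over its exons, while no other gene of the deposited table overlaps them. Mgll was read 774 times on day 3, 565 and 453 times in the morning and evening of day 4, and, on day 5, 756 times away from the embryo but 83 times around it. In CPM these were 44.6, 31.5, 28.6, 40.5 and 4.82. The other 4 libraries lay within 28.6 to 44.6 CPM, and the library around it was far below them. The highest value was 9.25 times the lowest.

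The earlier steps of Mgll were small. Its log2 difference was -0.50 (interval -0.66 to -0.34) from day 3 to day 4 morning and -0.14 (interval -0.32 to 0.05) from day 4 morning to evening. From day 4 evening to the day 5 library away from the embryo it was 0.50 higher (interval 0.33 to 0.67). Around the embryo it was 5.94-fold lower than on day 4 evening (log2 difference -2.54, interval -2.93 to -2.23), and 728 genes were lower still. Against the library away from the embryo it was 8.41-fold lower (log2 difference -3.04, interval -3.42 to -2.74), and 197 of the 12918 genes compared had a larger difference in that direction.

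Abhd6 (plus strand, chr14:8002902-8056555), a membrane hydrolase that also acts on 2-arachidonoylglycerol, did not follow Mgll. It had 282, 250, 271, 594 and 318 counts in the 5 libraries, or 16.2, 13.9, 17.1, 31.8 and 18.5 CPM. The intervals of day 3, day 4 evening and day 5 around the embryo overlapped one another, and only the day 5 library away from the embryo was clear of all the rest. From day 4 evening Abhd6 was 0.89 higher away from the embryo (interval 0.68 to 1.11) and 0.11 higher around it (interval -0.13 to 0.35). Around against away the log2 difference was -0.78 (interval -0.99 to -0.59).

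The ratio of the 2 hydrolases was lower at each step in the order of libraries used here. The last step is between 2 places on the same morning and not between times. The RPKM of Mgll was 1.20 times that of Abhd6 on day 3, 0.985 times on day 4 morning (interval 0.848 to 1.15, which holds 1), 0.729 times on day 4 evening, 0.555 times on day 5 away from the embryo and 0.114 times around it (interval 0.0883 to 0.145). In raw counts, where the longer transcript of Mgll weighs more, the ratio was 2.74, 2.26, 1.67, 1.27 and 0.261, so its order was the same but Mgll was ahead in all but the last. The summed RPKM of Dagla and Daglb against that of Mgll and Abhd6 was 0.181, 0.190, 0.133, 0.124 and 0.160 in the same order. In raw counts that ratio was 0.182, 0.190, 0.146, 0.140 and 0.252, so that the place of the library around the embryo depended on the correction for length. Abhd12, another hydrolase of this lipid, had 567, 778, 585, 1936 and 1681 counts and was higher in both day 5 libraries than on day 4 evening, by 1.49 away from the embryo and 1.40 around it on the log2 scale. In a ratio computed after the levels had been seen, its RPKM was 1.72, 3.24, 3.04, 6.03 and 47.7 times that of Mgll.

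**Figure D2:**
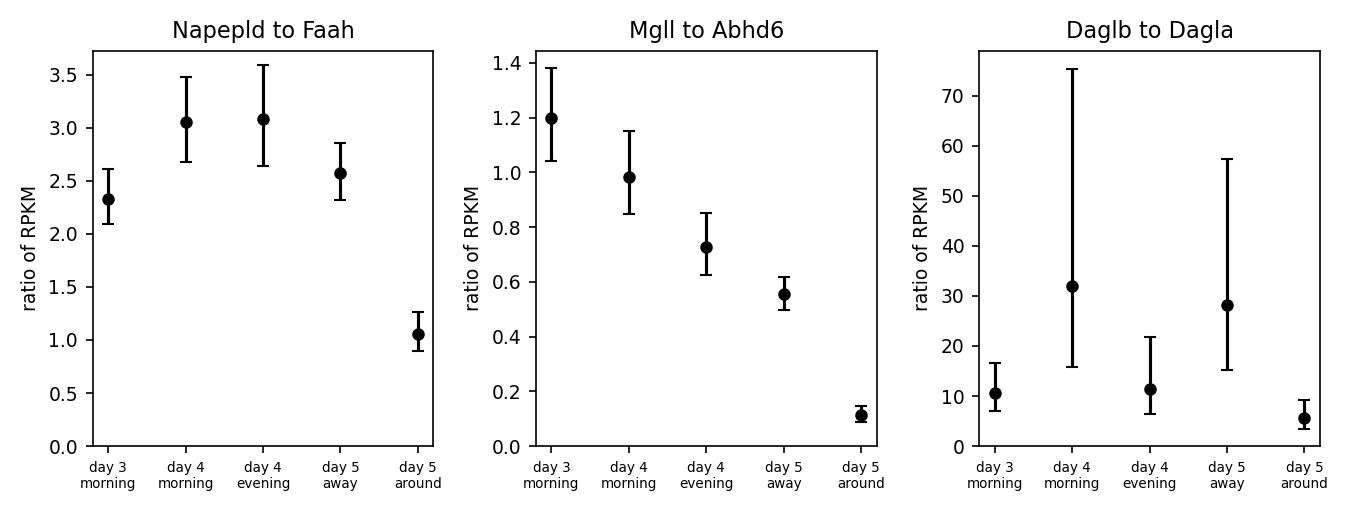
Ratio of RPKM between 2 genes within each library, with its 95% counting interval, for Napepld to Faah, Mgll to Abhd6 and Daglb to Dagla. All 3 ratios are lowest in the day 5 library around the embryo, at 1.06, 0.114 and 5.58, with wide intervals for the last. The interval of that last ratio, 3.49 to 9.22, overlaps those of day 3 (7.04 to 16.6) and day 4 evening (6.47 to 21.7).

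The receptors were at the limit of detection. Cnr1 (plus strand, chr4:33924632-33948831), the receptor first found in the brain, had 0 counts on day 3, 2 in each of the next 3 libraries and 8 around the embryo. Its 0 on day 3 allows up to 3 counts (a one-sided limit), or 0.173 CPM. The interval for the 8 counts, 3.45 to 15.8, overlapped those of the libraries with 2 counts, 0.242 to 7.22, and the log2 difference between the day 5 libraries had an interval from -0.21 to 5.39. Cnr2 (plus strand, chr4:135895404-135920210), the receptor known mainly from immune cells, had 0, 4, 2, 8 and 0 counts. It was at 0 on day 3 and around the embryo and highest away from it. The upper limit of its log2 difference around against away, for 0 against 8 counts, was -0.66. That limit lies below 0 when only counting error is considered.

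Set side by side, the members differed most on day 5. On day 4 morning against day 3, 0 of the 5 members past the filter were beyond a log2 difference of 1 in either direction, against 7.41% of all genes tested on the higher side and 11.5% on the lower side. On day 4 evening against morning the count was again 0 of 5, against 7.20% higher and 6.94% lower over all genes. On day 5 away from the embryo against day 4 evening, 0 of 5 were beyond 1, with a background of 13.0% higher and 12.7% lower, yet all 5 were above 0, as were 6519 of the 12918 genes, and their median was 0.70, beside 0.01 over all genes. Around the embryo against day 4 evening, 2 of the 5 (Napepld and Mgll) were lower beyond 1 and no member was higher, with a background of 20.7% lower and 19.1% higher. The median of the 5 was -0.37, beside -0.02 over all genes. Under edgeR's exact test, Mgll alone kept the call, with a dispersion of 0.1 that was assumed because these libraries cannot give one.

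Around against away from the embryo, 3 of the 5 members (Napepld, Mgll and Daglb) were lower beyond 1 and no member was higher. Over all genes tested, 15.0% were lower and 13.3% higher by as much. With libraries scaled by their totals all 5 members were lower beyond 1, and under the exact test, which rests on the same assumed dispersion, Daglb lost the call. The median of the 5 members was -1.07, beside -0.05 over all genes, and all 5 were below 0, as were 6843 of the 12918 genes. The comparisons are not independent: the day 4 evening library serves in 3 of them and each day 5 library in 2, so a high value away from the embryo enters both day 5 differences that use it. The smallest distance between the profiles of any 2 members over the 5 libraries was that of Faah and Daglb (root mean square difference of centred log2 CPM 0.24), and the largest that of Mgll and Abhd6 (1.20).

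**Figure D3:**
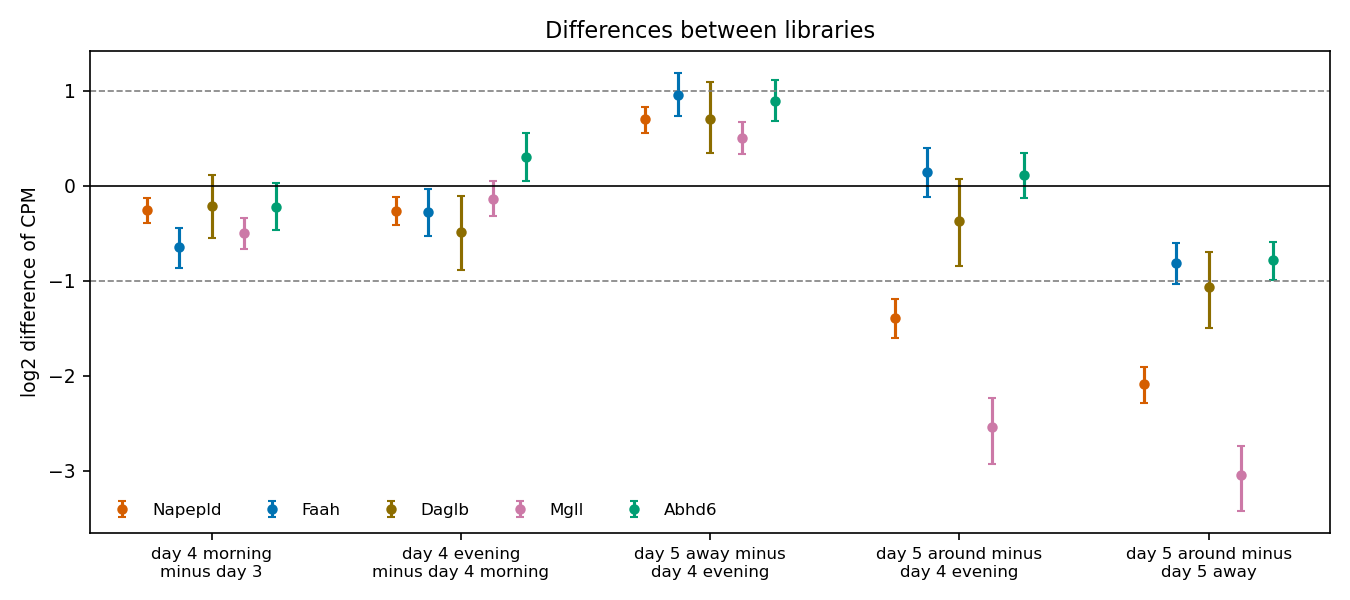
Log2 difference of CPM between 2 libraries for the 5 genes past the filter, in 5 comparisons, with the 95% counting interval; dashed lines mark a difference of 1 in either direction. All 5 genes lie above 0 in the day 5 library away from the embryo against day 4 evening, and Mgll reaches -3.04 around against away.

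The pathway around these genes was read from a list of 34 further genes for synthesis, breakdown, oxygenation, carriage and other receptors of these lipids, of which 24 passed the filter. On day 4 morning against day 3, 4 of the 24 were higher and 4 lower beyond a log2 difference of 1 (median 0.20), against 7.41% and 11.5% of all genes. On day 4 evening against morning the counts were 3 higher and 0 lower (median -0.12), against 7.20% and 6.94%. On day 5 away against day 4 evening they were 4 higher and 6 lower (median -0.08), against 13.0% and 12.7%. Around the embryo against day 4 evening, 9 were higher and 4 lower (median 0.25), against 19.1% and 20.7%. Compared with the library away from it, 9 were higher and 3 lower (median 0.13), against 13.3% and 15.0%, with 12 genes above 0 and 12 below. The filter averaged all 5 libraries. Fabp3, at 0.126 to 0.979 CPM in the other libraries and 120 CPM around the embryo, passed it only through the library around the embryo. It is among the higher genes in both comparisons of that library, so its place there follows in part from the filter.

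Among other genes for N-acylethanolamine synthesis, Pla2g16, a phospholipase and acyltransferase, was low together with Napepld. It had 551, 1376, 727, 456 and 127 counts, and its log2 difference around against away from the embryo was -1.71 (interval -2.02 to -1.44). Gdpd1, a phosphodiesterase that acts on lysophospholipids, was 1.28 higher around than away on the same scale. Ptpn22, a phosphatase, had 403 counts on day 4 evening, 121 on day 5 away and 76 on day 5 around, log2 differences of -1.95 and -2.50 from day 4 evening. Gde1, another phosphodiesterase, differed from day 4 evening by -1.23 away from the embryo and by -0.58 around it. Around against away Gde1 was 0.65 higher (interval 0.56 to 0.74). Its RPKM around the embryo was 88.2, beside 4.41 for Napepld.

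The 3 genes listed for enzymes that oxygenate arachidonic acid and endocannabinoids were all higher around than away from the embryo, beyond a log2 difference of 1. Over all genes tested, 13.3% were higher by as much. Ptgs2, the cyclooxygenase induced in the uterus at embryo attachment, had 1553, 335, 972, 67 and 8256 counts. Its log2 difference was -2.25 (interval -2.44 to -2.09) from day 3 to day 4 morning, -4.05 (interval -4.48 to -3.74) from day 4 evening to day 5 away, and 2.96 (interval 2.87 to 3.06) from day 4 evening to day 5 around. Around against away it was 7.02 (interval 6.71 to 7.43). Alox15, a lipoxygenase, had 3058, 7450, 29757, 7786 and 38506 counts, and was 2.18 higher on day 4 evening than in the morning (interval 2.14 to 2.22) and differed by -2.17 (interval -2.21 to -2.14) away from the embryo against day 4 evening. Alox15 and the related Alox12 were 2.42 and 2.50 higher around than away from the embryo. Against day 4 evening they were only 0.25 and 0.83 higher around it, and Alox12 differed by -1.67 away from it.

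Phospholipases C, which release the diacylglycerol that Dagla and Daglb cut, differed mainly on day 5. From day 4 evening to the library around the embryo, Plcd1 was 2.53 higher on the log2 scale (13 and 91 counts), Plcb1 1.99 higher (15 and 71 counts), Plcg2 1.73 higher (48 and 178 counts) and Plcb3 1.19 higher (326 and 814 counts), while Plcd3 differed by -1.26 (247 and 111 counts). Around against away, Plcb1, Plcd1 and Plcb3 were 1.90, 1.36 and 1.23 higher and Plcb4 differed by -1.20 (19 against 50 counts). Plcg2 was 1.39 higher away from the embryo than on day 4 evening and differed by -1.20 on day 4 morning from day 3.

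Carriers and nuclear receptors differed as well. Fabp3, a fatty acid binding protein best known from heart and muscle, had 17, 4, 2 and 3 counts in the first 4 libraries and 2075 around the embryo, log2 differences of 8.96 (interval 8.04 to 12.94) from day 4 evening and 8.77 (interval 8.00 to 11.83) from the library away. As plain ratios of CPM, to which the intervals belong, these differences were 953-fold and 749-fold. Scp2, a lipid transfer protein, was lower around than away, with a log2 difference of -1.15. Pparg, a nuclear receptor that binds fatty acid derivatives, had few reads, with 25, 4, 56, 26 and 33 counts, and its log2 differences of -2.20 (interval -4.68 to -1.16) and 3.44 (interval 2.55 to 5.92) both rest on the 4 counts of day 4 morning. Ppard, of the same family, was 2.01 higher around than away from the embryo. Cnrip1, which encodes a protein that binds Cnr1, had 39 counts on day 3 and 108 on day 4 morning, a log2 difference of 1.38. Gpr55, Gpr119 and Trpv1, other receptors for these lipids, had 0 counts in every library.

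**Figure D4:**
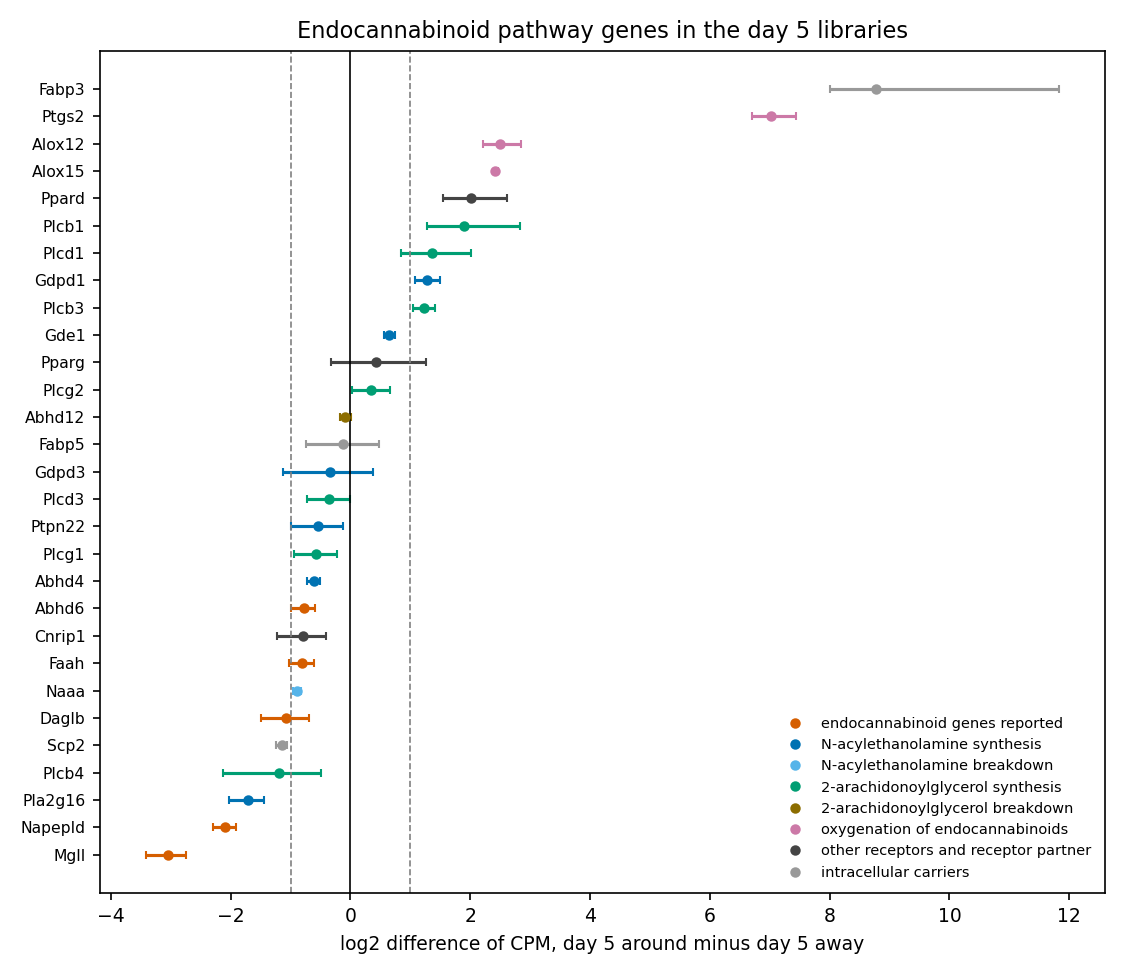
Log2 difference of CPM in the day 5 library around the embryo minus the one away from it, with the 95% counting interval, for the 5 genes past the filter (orange) and 24 further genes of the pathway, coloured by role. Mgll, at -3.04, and Napepld, at -2.09, are the lowest of the 29 genes, and Fabp3 and Ptgs2, at 8.77 and 7.02, the highest.

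By the shape of the profile over the 5 libraries, the genes nearest to Mgll among 8867 compared were Dcn, Sertad4 and Kctd1, with root mean square differences of centred log2 CPM of 0.15, 0.19 and 0.24. Those nearest to Napepld were B3gnt1, Tmem100 and Cpq, at 0.08, 0.12 and 0.14. With 5 points for each profile, these distances describe the libraries and carry no test. Dcn encodes decorin, a proteoglycan of connective tissue, and belongs to the stroma markers. The RPKM of Mgll was 0.171, 0.198, 0.156, 0.199 and 0.154 times that of Dcn in the 5 libraries, a ratio computed after the profiles had been seen. Since Dcn was the nearest of all genes compared, the choice itself makes this ratio nearly level. The RPKM of Napepld was 0.298, 0.406, 0.294, 0.429 and 0.654 times that of Dcn.

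Several marker lists differed in the library around the embryo, in both directions. In bulk RNA, fewer cells of a type and less RNA per cell cannot be told apart. Of the 8 stroma markers, 3 were lower beyond a log2 difference of 1 around than away from the embryo: Dcn at 14.1 against 91.6 CPM, Lum at 6.68 against 53.5 CPM and Col3a1 at 42.3 against 142 CPM. Hand2, another of them, was higher, at 132 against 20.9 CPM, and the list summed to 382 CPM around the embryo against 492 to 575 CPM elsewhere. All 5 leukocyte markers past the filter were lower by that much around than away. Over all genes compared, 15.0% were lower by that much around than away and 13.3% higher. Of the smooth muscle markers, Des alone was at 354 CPM around the embryo and 19.8 CPM away from it, and the rest of that list summed to 29.9 CPM around it against 1.67 to 7.77 CPM elsewhere. The endothelium markers went both ways: Cdh5 was at 71.4 against 7.13 CPM around and away, while Kdr and Emcn differed by -1.03 and -1.37 on the log2 scale. That list summed to 95.5 CPM around the embryo and 12.0 to 44.7 CPM elsewhere, and without Cdh5 to 24.1 CPM around it and 37.6 CPM away. The glandular epithelium markers summed to 30.4 CPM around the embryo and 1.26 to 4.23 CPM elsewhere, of which Lif, a cytokine that stroma near attached embryos also makes, gave 17.7 CPM. Without Lif the sum was 12.8 CPM against 1.26 to 4.02 CPM. The part of these cells in the low Mgll, Napepld and Cnr2 counts and in the Cnr1 and Fabp3 counts around the embryo was not tested.

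**Figure D5:**
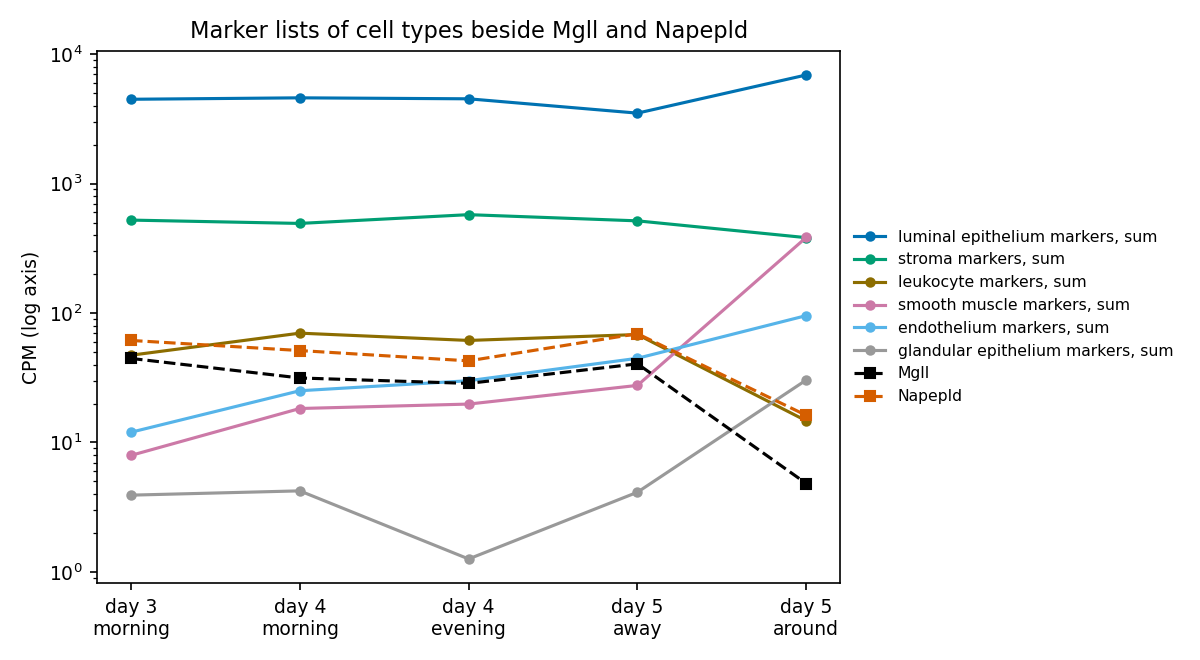
Summed CPM of 6 marker lists in the 5 libraries on a log axis, with the CPM of Mgll and Napepld as dashed lines; lines join libraries for reading only. Leukocyte markers, Mgll and Napepld are low together in the day 5 library around the embryo, while the sums of smooth muscle and glandular markers are at their highest there, and that of endothelium markers only through Cdh5 (24.1 CPM without it, against 37.6 CPM away).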

How the data were processed

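RNA-seq was made from 5 libraries of wild-type uterine luminal layers, 1 per condition, grouped by the labels. The authors aligned paired-end reads with HISAT2 to GRCm38/mm10 and deposited raw read counts per gene from featureCounts (Subread 2.0.0), with positions and gene lengths. The annotation, strand setting, treatment of multi-mapped reads and number of mice per library are not given in the sources used here. The 27 gene names with the form of dates were kept as they stand.

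Counts were scaled by TMM over the 5 libraries with edgeR 4.0.16 in R 4.3.3. Log2 CPM carries a prior count of 2, and RPKM uses the deposited length. The filter kept 12918 genes, those whose CPM by library totals averaged 1 or more. A log2 difference beyond 1 is a size and not a test. Intervals are exact Poisson (levels) and exact Clopper-Pearson (ratios of counts), at 95%. The interval beside a log2 difference belongs to the ratio of counts without the prior. At low counts the prior draws the log2 difference itself toward 0. Other work used Python 3.11.15, pandas 2.3.3, numpy 2.4.6, scipy 1.17.1 and matplotlib 3.10.9. The steps were tested on simulated data. The alternatives were a prior count of 0.5, scaling by DESeq2 1.42.0 or by library totals alone, other filters, a log2 threshold of 1.5 and edgeR's exact test at an assumed dispersion of 0.1. Scaling and filtering on the libraries other than the one around the embryo was a further alternative that was not planned. Marker sums without Cdh5, Lif or Des were added after seeing the data.

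Every member is named, with the 2 pathway genes of largest difference in each comparison and others beyond 1 that have at least 20 counts in a library of the comparison. The 3 genes nearest in profile are named for the 2 members with the widest range, taken from genes that averaged 10 CPM or more. The members and lists were chosen with earlier results of these data known. One marker of the luminal epithelium list is not reported here.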

Additional observations from a re-analysis of the deposited data

Results flagged for a closer look

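For Napepld and Mgll, the day 5 libraries lay on opposite sides of day 4 evening. Napepld was 0.70 higher away from the embryo and differed by -1.39 around it, and the difference between the day 5 libraries was -2.09 on the log2 scale. Mgll was 0.50 higher away from the embryo and differed by -2.54 around it, and the difference between the day 5 libraries was -3.04. Each place is 1 library, so the difference was not tested against any spread between mice.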

How the results depend on the processing

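No paired analysis was possible because each condition has 1 library, and no library could be left out of a comparison. The limits are those of 1 library per condition, of counting error for genes with few reads, and of scaling. With DESeq2 size factors the 25 log2 differences of the 5 members moved by at most 0.06, and with a prior count of 0.5 by at most 0.02. With library totals they moved by at most 0.31. No sign changed under any of the 3, and 4 of the 25 crossed a difference of 1, all with library totals. The median difference of all genes was then between -0.36 and 0.23.

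With library totals, Faah and Abhd6 joined the list, so that 2 members were higher away from the embryo than on day 4 evening and all 5 were lower around than away. Without a filter, 1 member was higher (Cnr2) and 1 lower (Dagla) on day 4 morning than on day 3, 1 was higher away than on day 4 evening (Cnr2), 1 higher around than on day 4 evening (Cnr1) and 2 higher around than away (Cnr1 and Dagla). Cnr2 then joined the lower side in both, which made 3 and 4. Around against day 4 evening, 1 member (Mgll) was lower with a threshold of 1.5 and 1 (Mgll) with the exact test.

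Of the 24 pathway genes, the exact test kept 0 higher and 1 lower on day 4 morning, 1 higher on day 4 evening, 0 higher and 2 lower away, 5 higher and 2 lower around against day 4 evening, and 5 higher and 0 lower around against away. With a threshold of 1.5, 0 were higher on day 4 morning, 0 higher away and 1 lower around than away. With library totals, 1 was higher on day 4 morning and 5 lower around than away. Without a filter, which takes in all 34 listed genes, 2 were lower on day 4 evening and 5 lower around than away. The genes this added had at most 9 counts in the first comparison and at most 26 in the second. With a filter at 5 CPM, which keeps fewer genes, 2 were higher away. With scaling and filter on the 4 libraries other than the one around the embryo, 3 were lower on day 4 morning, against 4 in the main setting. The remaining pathway counts among those libraries were the same as in the main setting.

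Over all genes, the exact test called 783 higher and 610 lower around than away, against 1715 and 1943 by size. Over the 10 counts of all genes, those by size ran from 896 to 2678, those of the exact test from 80 to 1298 and those beyond 1.5 from 358 to 1683. With no filter, 8 of them moved, to between 1653 and 4029. With a filter at 5 CPM, 5 moved, to between 476 and 1282, and with library totals 1 moved, from 957 to 538. Ratios without length correction stayed within their counting interval in 11 cases. The other 32 moved beyond it or, for Dagla plus Daglb to Mgll plus Abhd6 in every library, had no interval. For other counts and levels, the causes of these shifts were not tested.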
